A study of Homo sapiens with 12 samples.

Results

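The comparison described here is that of miR-135b with scrambled precursor in LNCaP cells 36 h after transfection. Its arrays were chosen by their titles, 2 with the miR-135b precursor and 2 with the scrambled one, 4 of the 12 arrays in the series. LNCaP is an androgen-responsive line established from a metastasis of human prostate cancer. The cells received a commercial precursor of miR-135b, or a scrambled precursor as negative control, at 20 nM, and RNA was taken after 12, 24 or 36 h. Each of the 6 groups holds 2 biological repeats, numbered 1 and 2, hybridised to Illumina expression arrays. Both groups of 36 h thus share the cell line, the transfection and the dose, and differ in the precursor. No untransfected cells are among the arrays, so values are relative to cells that were also transfected. The mature microRNA itself is not read by these arrays, so the transfection has no check in these values. The probe of the gene MIR135B was detected on 1 of 12 arrays, an array of 36 h.

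A microRNA guides the silencing complex to messenger RNAs that pair with its seed, the bases near its 5′ end, and the paired messages are degraded or translated less. Direct targets of a transfected microRNA can therefore fall in RNA or in protein alone, while genes further along a pathway can move either way and often later. HIF1AN, an asparagine hydroxylase that restrains the hypoxia factor HIF1A, is among the reported targets of the miR-135 family. Cilia, the other subject of what follows, are built around an axoneme of microtubules. In motile cilia dynein arms drive the beat, and radial spokes and nexin-dynein links coordinate it, while intraflagellar transport carries the parts. Dividing cells usually lose the cilium and rebuild it on leaving the cycle.

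The transfected molecule is shown with its closest relative because the seed decides which messages can pair. Capitals mark the seed, bases 2 to 8, and the sequences and positions are those of RefSeq on GRCh38.p14. Both arms of the miR-135b hairpin are given, the 5p arm at chr1:205448361-205448383 and the 3p arm at chr1:205448323-205448344, each on the minus strand. The miR-135a-5p sequence shown is that of MIR135A1 at chr3:52294270-52294292, minus strand.
hsa-miR-135b-5p: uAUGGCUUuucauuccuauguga
hsa-miR-135a-5p: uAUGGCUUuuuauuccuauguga
hsa-miR-135b-3p: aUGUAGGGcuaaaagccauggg
The 5p forms are equal at 22 of 23 positions and share the seed AUGGCUU, which 2 mature miRNAs in the table hold. Reports on either miR-135a or miR-135b targets thus concern the same seed.

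The arrays were of like quality. Between 16901 and 17229 of 47323 probes were detected on each array of 36 h. Repeats correlated at r = 0.9787 in miR-135b and 0.9884 in scrambled cells, and arrays of opposite treatment at 0.9760 to 0.9878. All 19 measured luminal prostate genes, the kallikreins and FOXA1 among them, were detected on all 4 arrays. The basal keratins KRT5 and KRT14, the leukocyte antigen PTPRC, the neuroendocrine genes CHGA and SYP and the fibroblast genes COL1A2 and DCN were detected on none of 12 arrays. Some markers that are less restricted to their type were detected on all 12. Among them were CD68 and LCP1 of the leukocyte list, ENO2, DDC and STMN1 of the neuroendocrine list and VIM, COL1A1, ACTA2 and TAGLN of the mesenchymal list. Others were detected on part of the arrays, such as FBLN1 of the mesenchymal list on 11 and CD8A of the leukocyte list on 7. Levels below are log2 intensities after background correction and quantile normalization, given per repeat, and differences are log2 fold changes of miR-135b minus scrambled, ± the standard error of the fit.

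At 36 h miR-135b cells differed from scrambled cells by 98 rises and 100 falls among 11238 genes tested, or 0.872% and 0.890% (limma, Benjamini-Hochberg adjusted p under 0.05), 1.76% in all. Members of 6 lists of cilia genes made up 29 of the 98 rises, led by the radial spoke gene RSPH1. The falls included 4 of 68 measured replication genes and, singly or in pairs, genes of other lists given below, such as CPLX1 and SCML2. The median rise was 0.93 and the median fall -0.89, and 42 rises and 38 falls reached 2-fold. The median of all genes was 0.01, and 51.9% of them were above 0. The calls borrow the spread of each gene from all 12 arrays: fitted on the 4 arrays of 36 h alone, 0 genes passed (1140 at an unadjusted p under 0.05). With the repeat numbers as pairs, 289 genes rose (2.57%) and 353 fell (3.14%), 5.71% in all, all 198 genes above among them. These unpaired and paired shares of all genes are the background for every list count below. Without 1 of the 4 arrays the count was 49 (miR-135b repeat 1), 57 (miR-135b repeat 2), 31 (scrambled repeat 1) and 9 (scrambled repeat 2). In these fits the group left with 1 array is assumed to vary like the others. The 9 named genes that passed in each of the 4 fits were ACTA2, BBOF1, C12orf76, FHL2, LIAT1, RAB36, RSPH1, MRPL16 and SCML2.

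**Figure D1:**
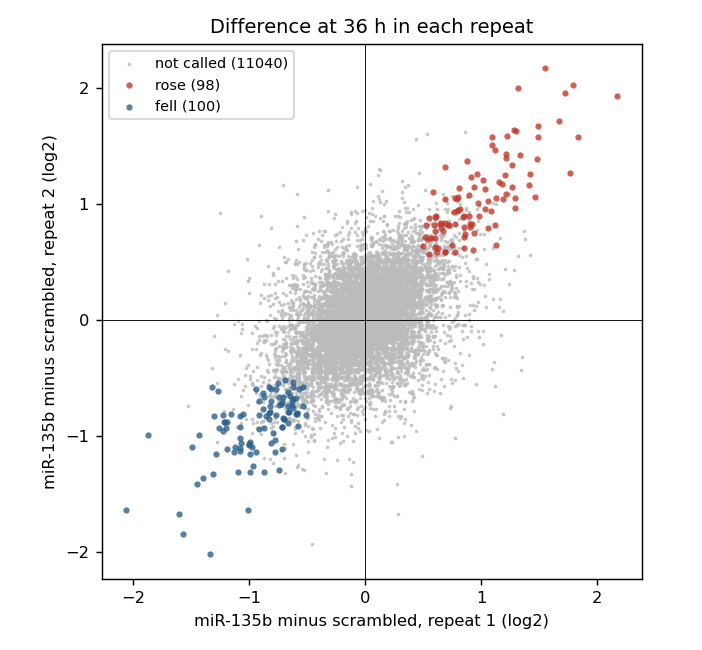
Log2 difference between miR-135b and scrambled cells at 36 h in repeat 1 (horizontal axis) and repeat 2 (vertical axis), one point per gene, for 11238 genes. Red points are the 98 genes that rose and blue points the 100 that fell in the fit; all 198 have both differences on one side of 0, and over all genes the 2 repeats correlate at r = 0.49.

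RSPH1, a component of the radial spoke head, had the largest rise of the comparison. It read 8.05 and 8.27 on the miR-135b arrays and 5.88 and 6.34 on the scrambled arrays. Both treated arrays lay well above both controls, and the difference was 2.05 ± 0.19, or 4.13-fold (limma adjusted p = 0.00228). RAB36, a small GTPase of membrane traffic, read 8.24 and 8.37 against 6.69 and 6.19, again without overlap, and rose by 1.86 ± 0.19. ACTA2, the actin of smooth muscle, read 8.56 and 8.40 against 6.84 and 6.44 and rose by 1.84 ± 0.19 (adjusted p = 0.00293). BBOF1, a basal body protein that orients cilia in multiciliated cells, read 8.60 and 8.45 against 6.77 and 6.86, with repeats closer to each other than the groups by far. It rose by 1.70 ± 0.14 (adjusted p = 0.00122). LIAT1, a ligand of an arginyltransferase, and C12orf76 rose by 1.70 ± 0.14 and 1.54 ± 0.12 at the same adjusted p. Their treated arrays read 10.69 and 10.81 for LIAT1 and 9.97 and 10.01 for C12orf76, and the controls 9.01 and 9.09, and 8.48 and 8.43.

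The next genes by size included more ciliary ones. TTC29, a protein of flagellar assembly, read 8.62 and 8.70 against 7.31 and 6.69 and rose by 1.66 ± 0.22. The sphingosine-1-phosphate receptor gene S1PR3 read 9.90 and 10.56 against 8.41 and 8.89. The treated repeats lay further apart than those of the genes above but clear of both controls, and it rose by 1.58 ± 0.31 (adjusted p = 0.0386). DYNLRB2, a roadblock-type light chain of dynein, rose by 1.51 ± 0.27 and IQCK by 1.38 ± 0.16. Neither treated array overlapped a control for these genes, as for all 198 called genes. Among all genes tested, 20.1% had both treated arrays above both controls and 19.1% had both below, so separation of the groups is by itself common.

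**Figure D2:**
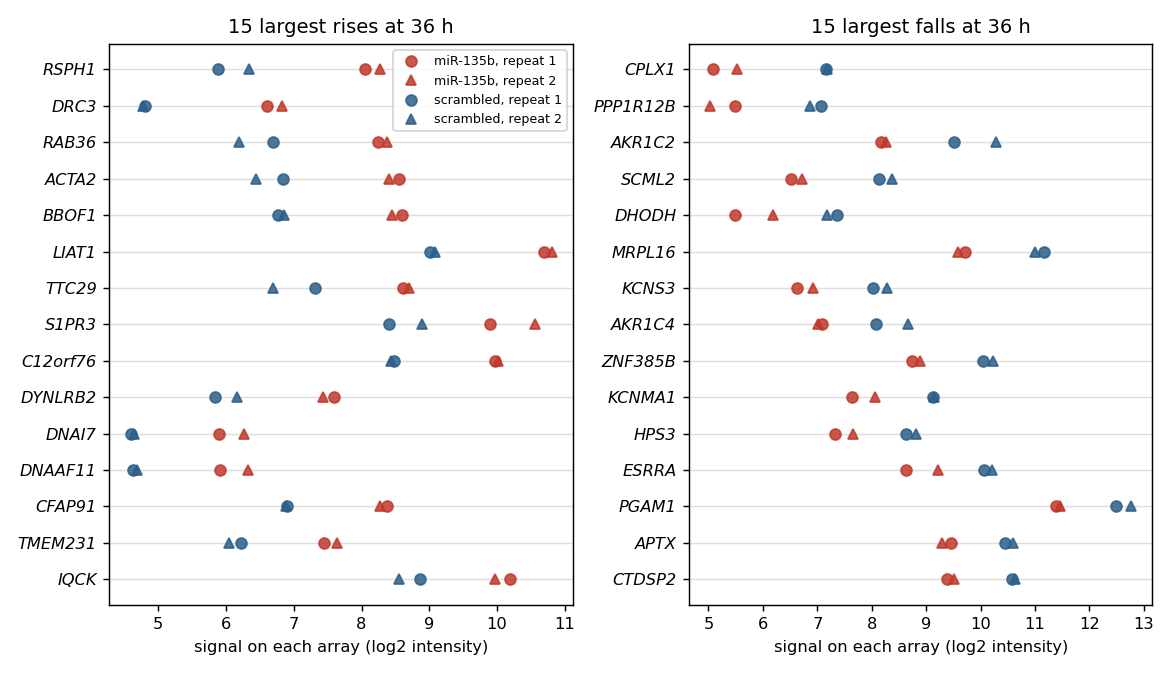
Log2 intensity on each of the 4 arrays of 36 h (horizontal axes) for the 15 genes with the largest rises (left) and the 15 with the largest falls (right), miR-135b in red and scrambled in blue, circles for repeat 1 and triangles for repeat 2. RSPH1 sits at 8.05 and 8.27 against 5.88 and 6.34, and CPLX1 at 5.09 and 5.53 against 7.15 and 7.17; in each row the red and blue points are apart.

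Genes of the ciliary axoneme and of ciliary transport were the largest group among the rises. Over 6 lists of cilia genes together, 29 of 116 measured members rose, 1 fell and 86 were not called, against 0.872% and 0.890% of all genes. The median member stood at 0.34 at 36 h, 0.32 at 24 h and 0.11 at 12 h, against 0.01 for all genes at 36 h. A further list, of multiciliation regulators and basal body genes, is not among the 6 and had a median of 0.07 at 36 h. With the pairs, 42 rose and 1 fell, against 2.57% and 3.14% of all genes. Not all members could be measured. In the radial spoke list 14 of 26 members with a probe stayed under the detection filter. It was 20 of 44 in the dynein list and 23 of 40 in that named for cilia and flagella. Of the 116 measured, 7 were detected on treated arrays alone and passed the filter through them. Their presence in the count is thus not independent of the change. Among the 86 members detected on all 12 arrays, 24 rose and 1 fell, against 1.30% and 1.70% of the 9283 genes so detected, with a median of 0.33. In RNA from whole cultures, a large rise in few cells and a small rise in most cannot be told apart.

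Within the radial spoke and nexin-dynein list, 6 of 12 measured genes rose, 0 fell, and the median was 0.69. Besides RSPH1 these were 3 subunits of the nexin-dynein regulatory complex and 2 spoke proteins. DRC3 read 6.60 and 6.82 against 4.81 and 4.78. The scrambled arrays did not detect it, so the difference is given as at least 2.07-fold (limma adjusted p = 0.0215), and its second probe read 0.89. DRC9 read 8.72 and 8.65 against 7.84 and 7.28, a rise of 1.12 ± 0.22. DRC4 was the smallest of these, at 10.12 and 10.27 against 9.60 and 9.55, 0.62 ± 0.12. Of the spoke proteins, ROPN1L rose by 1.30 ± 0.17 and NME5 by 1.00 ± 0.16. The members not called ran from RSPH10B at 0.02 to SPEF1, a central pair protein, at 0.75. With median scaling in place of quantile normalization, DRC4, DRC9 and NME5 lost their call (limma adjusted p = 0.119, 0.0686 and 0.0522).

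Of 24 measured genes for dynein arms and their assembly in the cytoplasm 9 rose and 0 fell, with a median of 0.49. That count includes 4 members detected on treated arrays alone, which passed the detection filter through the arrays where they are high. Among the 17 members detected on all 12 arrays 5 rose and 0 fell, with a median of 0.41. Most of those called are assembly factors. DNAAF11 was at least 1.37-fold higher, DNAAF4 at least 1.31-fold and ZMYND10 at least 1.43-fold, as was DNAI7, an intermediate chain relative, at least 1.34-fold. No scrambled array of 36 h detected any of these 4, and the second probe of DNAAF4 read 0.59. DNAAF19 read 7.51 and 7.49 against 6.25 and 6.33 and rose by 1.21 ± 0.16. DNAAF3 rose by 0.99 ± 0.14 and CFAP300, which also acts in assembly, by 0.98 ± 0.17. The light chain gene DNAL4 rose by 0.75 ± 0.12 and the docking complex gene ODAD4 by 0.76 ± 0.14. ODAD4 lost its call with median scaling (limma adjusted p = 0.0554). The heavy chain genes that were measured were not called: DNAH1 read 0.30, DNAH6 0.28, DNAH14 0.15 and DNAH2 -0.32.

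Among 17 measured genes named for cilia and flagella, 5 rose and 0 fell, with a median of 0.58. CFAP91, which sits at the base of radial spokes, read 8.38 and 8.28 against 6.90 and 6.89 and rose by 1.44 ± 0.22. CFAP119 rose by 1.18 ± 0.16, CFAP69 by 1.17 ± 0.18 and CFAP70, an outer arm protein, by 1.11 ± 0.13, and CFAP300 is counted here too. CFAP20, at -0.10, was the lowest of the others.

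Genes of the transport system, which all cilia use whether motile or not, moved less. Of 29 intraflagellar transport genes 6 rose and 0 fell, with a median of 0.36 and 27 members above 0. IFT140, of the retrograde complex, rose by 1.31 ± 0.25, although 1 of the scrambled arrays did not detect it. The dynein-2 subunit DYNC2I1 rose by 0.94 ± 0.19, IFT20 by 0.89 ± 0.19, IFT88 by 0.85 ± 0.17, WDR19 by 0.83 ± 0.17 and IFT43 by 0.56 ± 0.12. The call of IFT43 was close to the threshold (adjusted p = 0.0499), and other probes of IFT88 read 1.29 and 0.32. With the pairing 11 rose, IFT172 at 0.96 and DYNC2LI1 at 0.68 among the 5 more. Of 13 BBSome genes, which encode a coat for ciliary membrane cargo, 1 rose, the regulator LZTFL1, by 1.00 ± 0.18. The list median was 0.20, and 3 rose with the pairing. With median scaling in place of quantile normalization, the 6 transport genes and LZTFL1 all lost their call (limma adjusted p from 0.0554 to 0.137). Without the detection filter 2 of 32 transport genes rose.

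The transition zone, the gate at the base of the cilium, held changes in both directions. Of 23 genes 3 rose and 1 fell, or 5 and 1 with the pairing, with a median of 0.27. TMEM231 read 7.44 and 7.64 against 6.22 and 6.05, a rise of 1.40 ± 0.15 (limma adjusted p = 0.0042). B9D1 rose by 0.77 ± 0.15 and TCTN1 by 0.76 ± 0.12. With median scaling B9D1 lost its call (limma adjusted p = 0.0612). TMEM237 went the other way, at 9.33 and 9.06 against 10.30 and 10.32, and fell by 1.12 ± 0.13 (adjusted p = 0.0042). It was the 1 cilia gene of the 6 lists to fall.

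Few genes were called among the regulators of the multiciliated programme. Of 23 measured regulators and basal body genes 2 rose, BBOF1 and E2F5, and 0 fell, or 2 with the pairing, with a median of 0.07. E2F5, an E2F factor that works in multiciliated cells, read 9.67 and 9.69 against 8.55 and 8.88 and rose by 0.97 ± 0.17. MYB, which acts early in that programme and in dividing cells, read 6.43 and 6.54 against 7.30 and 7.30. Its difference of -0.81 ± 0.18 had an adjusted p of 0.0555, and of 0.041 with the pairing. FOXJ1, the master factor of motile cilia, and GMNC were detected on none of 12 arrays. RFX3, a factor that binds promoters of cilia genes, read 0.41 and RFX2 -0.15, neither of them called.

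**Figure D3:**
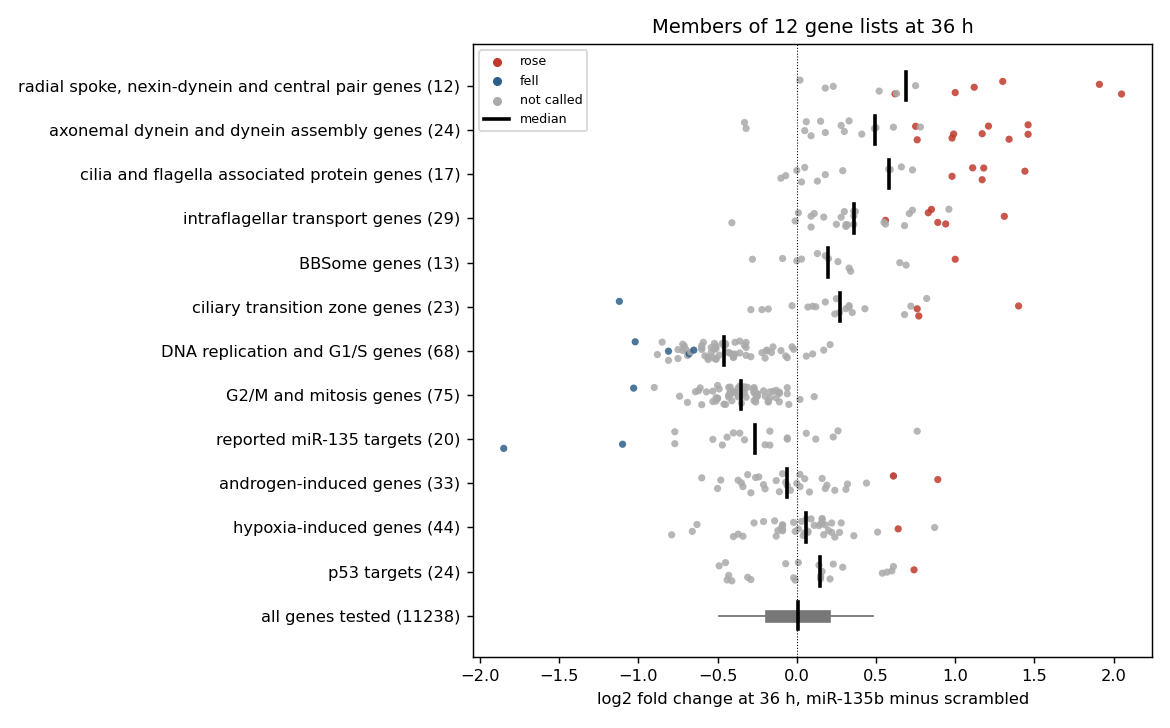
Log2 fold change at 36 h (horizontal axis) of the measured members of 12 gene lists, one point per gene, red for genes that rose, blue for genes that fell and grey for genes not called, with the list median as a black bar and the number measured in brackets; the box for all genes spans the quartiles and its line the 5th to 95th percentile. Medians of the 6 cilia lists drawn lie between 0.20 and 0.69, those of the replication and mitosis lists at -0.46 and -0.35, and that of all genes at 0.01. The list of multiciliation regulators and basal body genes, with a median of 0.07, is not drawn.

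Promoters were searched because so many cilia genes moved together. The X-box, the sequence that RFX factors bind, was taken as GTTNCC, a spacer of 1 to 3 bases and GGNAAC, 10 specified bases that read the same on both strands. The window ran from 250 bases before to 50 after the start of each gene in RefSeq. Of the 98 rises 85 have a window there, and 22.4% of these held a match with at most 1 mismatch. The share was 4.93% over all 35116 promoters, 4.98% over the 9097 tested genes with a window, and 6.02% over the falls. With no mismatch the shares were 7.06% of rises, 0.802% of tested genes and 1.20% of falls, and with up to 2 they were 52.9%, 30.5% and 22.9%. Among members of the cilia lists, 30.4% of the 23 that rose and 34.2% of the 76 not called held it with at most 1 mismatch. With none the shares were 8.70% and 11.8%, and with up to 2 they were 73.9% and 59.2%, so their order turns with the limit, and the difference was not tested. Rises outside these lists held it in 6.45%, 19.4% and 45.2% of 62, with none, at most 1 and up to 2. The search was chosen after the rises were known, and a match is a description of letters, not a site of binding.

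The windows of 4 rises are printed because each holds such a match near the start of the gene. IQCK (chr16:19718021-19718320, plus strand) and TCTN1 (chr12:110613879-110614178, plus strand) have no mismatch. TTC29 (chr4:146945815-146946114, minus strand) and TMEM231 (chr16:75556203-75556502, minus strand) have 1. Capitals mark the match, which begins 15 bases after the annotated start in IQCK, at the start in TCTN1, and 14 and 40 bases before it in TTC29 and TMEM231. All are RefSeq sequences of GRCh38.p14, written along the gene.
IQCK: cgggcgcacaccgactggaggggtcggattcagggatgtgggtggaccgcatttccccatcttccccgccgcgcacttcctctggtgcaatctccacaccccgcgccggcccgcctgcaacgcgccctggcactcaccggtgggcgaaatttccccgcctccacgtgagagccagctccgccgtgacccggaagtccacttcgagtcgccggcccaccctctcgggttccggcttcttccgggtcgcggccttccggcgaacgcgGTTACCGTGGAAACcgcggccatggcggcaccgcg
TCTN1: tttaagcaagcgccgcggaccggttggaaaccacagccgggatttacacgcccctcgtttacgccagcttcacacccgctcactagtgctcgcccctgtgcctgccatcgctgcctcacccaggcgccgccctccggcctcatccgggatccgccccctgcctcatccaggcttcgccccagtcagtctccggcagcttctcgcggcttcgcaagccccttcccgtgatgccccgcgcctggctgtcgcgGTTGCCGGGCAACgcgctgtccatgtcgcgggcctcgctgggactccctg
TTC29: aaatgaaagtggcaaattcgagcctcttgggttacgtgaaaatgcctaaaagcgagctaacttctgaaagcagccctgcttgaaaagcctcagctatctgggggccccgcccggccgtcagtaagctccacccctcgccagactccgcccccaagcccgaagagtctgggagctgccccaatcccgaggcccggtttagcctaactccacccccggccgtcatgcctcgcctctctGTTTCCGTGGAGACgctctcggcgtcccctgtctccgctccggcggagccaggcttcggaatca
TMEM231: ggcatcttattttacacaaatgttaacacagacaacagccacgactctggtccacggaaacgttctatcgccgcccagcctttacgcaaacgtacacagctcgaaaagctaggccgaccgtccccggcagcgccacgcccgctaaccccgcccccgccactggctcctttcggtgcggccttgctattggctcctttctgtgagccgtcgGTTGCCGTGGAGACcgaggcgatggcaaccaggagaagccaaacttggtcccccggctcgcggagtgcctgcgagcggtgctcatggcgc
DRC3, the nexin-dynein gene above, had no match with up to 2 mismatches in its window, and neither had BBOF1.

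**Figure D4:**
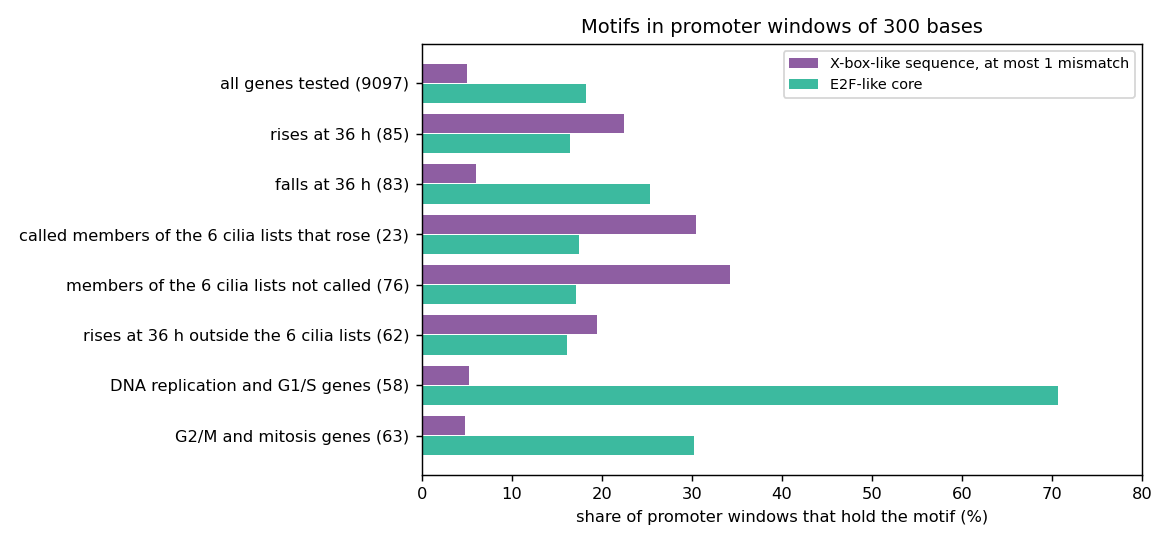
Share of promoter windows of 300 bases (horizontal axis, percent) that hold an X-box-like sequence with at most 1 mismatch (purple) or an E2F-like core (green), for sets of genes with the number of windows in brackets. The purple bar is 22.4% for the rises against 4.98% for all genes tested, and the green bar is 70.7% for the DNA replication list against 18.2%.

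DNA replication genes stood lower in miR-135b cells at 36 h. Of 68 measured genes of replication and the G1/S transition 4 fell and 0 rose, and 64 were below 0, with a median of -0.46. With the pairing 26 fell, against 3.14% of all genes. GINS2, a subunit of the replicative helicase, read 10.04 and 9.97 against 10.86 and 10.76, both treated arrays lower, and fell by 0.81 ± 0.13 (limma adjusted p = 0.0208). GINS3 of the same complex fell by 0.68 ± 0.13, and RRM2, which makes deoxynucleotides, by 0.65 ± 0.12. GINS3 and RRM2 lost their call with median scaling (limma adjusted p = 0.143 and 0.125). RBL1, a pocket protein that binds E2F factors, read 6.96 and 6.85 against 7.70 and 8.14 and fell by 1.02 ± 0.17. The helicase genes MCM2, MCM3, MCM4 and MCM5 read -0.70, -0.71, -0.85 and -0.72, and the licensing factor CDT1 -0.75, each past the threshold with the pairing alone. The list median was -0.01 at 12 h and -0.32 at 24 h. In cultures a smaller share of cells in S phase and less of these messages per cell cannot be told apart.

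Of 75 genes of G2 and mitosis 1 fell, DEPDC1, at 7.78 and 7.90 against 9.01 and 8.72, by 1.03 ± 0.17, and 0 rose. The median was -0.35, with 73 members below 0, and 13 fell with the pairing, among them CDK1 at -0.60 and AURKB at -0.64. Over all genes 0.890% fell in the unpaired fit and 3.14% in the paired one. None of the 18 measured genes on the list of cell cycle inhibitors and pocket proteins was called (1 fell with the pairing). That list does not hold the pocket protein gene RBL1, which fell and is counted with the replication genes. Of 24 p53 targets 1 rose, SPATA18, by 0.74 ± 0.12 (2 rose and 1 fell with the pairing).

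E2F factors drive replication genes. Their core was taken as TTGGCGC. The variant with the letters TTCCCGC was allowed, and so was a further one that reads TTCGCGC, each on either strand. Such cores stood in 70.7% of the 58 replication windows, 30.2% of the 63 mitotic ones and 18.2% of tested genes. They were in 16.5% of the rises and 25.3% of the falls. GINS2 (chr16:85688905-85689204, minus strand) and RBL1 (chr20:37095948-37096247, minus strand) are shown because they fell and hold such cores, in capitals. The windows of RRM2 and DEPDC1 held none.
GINS2: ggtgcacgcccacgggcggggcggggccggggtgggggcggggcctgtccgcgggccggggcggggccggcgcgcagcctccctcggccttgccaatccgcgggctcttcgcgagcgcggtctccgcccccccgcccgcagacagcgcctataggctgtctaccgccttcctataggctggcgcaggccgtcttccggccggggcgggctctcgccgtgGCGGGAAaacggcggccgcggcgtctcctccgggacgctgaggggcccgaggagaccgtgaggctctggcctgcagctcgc
RBL1: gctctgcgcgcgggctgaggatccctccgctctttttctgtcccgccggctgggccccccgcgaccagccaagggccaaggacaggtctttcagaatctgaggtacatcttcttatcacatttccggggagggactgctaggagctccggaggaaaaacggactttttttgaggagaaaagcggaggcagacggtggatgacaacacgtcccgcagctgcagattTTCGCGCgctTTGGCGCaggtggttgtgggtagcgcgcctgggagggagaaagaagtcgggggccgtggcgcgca

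Of 20 measured genes reported as targets of the miR-135 family 2 fell, CPLX1 and HIF1AN, and 0 rose, against 0.890% of all genes falling. With the pairing 4 fell and 1 rose, against 3.14% and 2.57%. CPLX1, a complexin of vesicle fusion, read 5.09 and 5.53 against 7.15 and 7.17. It was detected on neither treated array and was at least 2.86-fold lower (limma adjusted p = 0.0042). HIF1AN read 6.29 and 6.73 against 7.37 and 7.87. Its treated arrays lay below both controls, though repeats within a group lay nearly as far apart as the nearest arrays of the 2 groups, and it fell by 1.10 ± 0.21 (adjusted p = 0.0297). The difference was -0.70 on the authors' processed values. With median scaling HIF1AN was at -1.09 and not called (limma adjusted p = 0.0686). Without 1 array of 36 h its difference ran from -1.35 to -0.86. HIF1AN was already at -0.82 at 12 h and -0.86 at 24 h, and CPLX1 at -1.72 and -1.69.

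The other reported targets were not called in the unpaired fit. The AKT phosphatase gene PHLPP2 read 6.84 and 7.29 against 7.81 and 7.85, a difference of -0.77 ± 0.18 with an adjusted p of 0.065, and of 0.0328 with the pairing. RUNX2, also at -0.77, passed with the pairing (adjusted p = 0.0144) but was detected on 1 of 4 arrays. BMPR2, a BMP receptor, stood higher, at 8.57 and 8.61 against 7.95 and 7.71, 0.76 ± 0.20, with an adjusted p of 0.0978, and of 0.0213 with the pairing. The BMP mediator SMAD5 read -0.53, the mineralocorticoid receptor NR3C2 -0.47, the focal adhesion kinase PTK2 -0.44 and the ubiquitin ligase SIAH1 -0.40. These 4 passed in 1 of the settings run, the paired fit on the authors' processed values (adjusted p = 0.00961, 0.0204, 0.0107 and 0.0133). The remaining 11 ran from -0.36 for ROCK1 to 0.26 for BTRC, with JAK2 at -0.33, KLF4 at -0.20, FOXO1 and GSK3B at -0.17 each, MTCH2 and LATS2 at -0.06 each, ROCK2 at 0.06, TXNIP at 0.12 and STK38L at 0.23. The median was -0.27, with 15 of 20 members below 0, where 51.9% of all genes were above 0. In 8 members both treated arrays lay below both controls and in 2 above, against 19.1% and 20.1% of all genes.

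The largest falls outside the reported targets came from varied functions. PPP1R12B, a subunit of myosin phosphatase, was detected on no treated array and was at least 2.49-fold lower (limma adjusted p = 0.0252). SCML2, a polycomb group gene, read 6.52 and 6.72 against 8.13 and 8.38, far apart, and fell by 1.64 ± 0.16. Its relative SCML1 fell by 0.93 ± 0.15, and these were the 2 of 31 polycomb genes called, or 3 with the pairing. MRPL16 of the mitochondrial ribosome read 9.72 and 9.58 against 11.17 and 10.99 and fell by 1.43 ± 0.12 (adjusted p = 0.00122). Of 76 such genes 1 more fell, MRPS15, by 0.78 ± 0.12, and the list median was -0.08. DHODH, which oxidises dihydroorotate in pyrimidine synthesis, read 5.49 and 6.19 against 7.36 and 7.18. Its fall was 1.43 ± 0.25, with 1 treated array not detecting it, and with RRM2 it made up the 2 of 29 nucleotide synthesis genes called, or 4 with the pairing. The share of all genes that fell, beside which these list counts stand, was 0.890%, or 3.14% with the pairing.

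Among ion channel and vesicle fusion genes 3 of 21 fell and 0 rose, against 0.890% and 0.872% of all genes. With the pairing 4 fell and 0 rose, against 3.14% and 2.57%. The BK potassium channel gene KCNMA1 read 7.64 and 8.06 against 9.13 and 9.14 and fell by 1.29 ± 0.26. KCNS3, a silent subunit that modifies other potassium channels, fell by 1.38 ± 0.21, and CPLX1 was the third. The nuclear receptor gene ESRRA, at 8.63 and 9.21 against 10.06 and 10.20, fell by 1.21 ± 0.22. The glycolytic gene PGAM1 read 11.38 and 11.46 against 12.48 and 12.77 and fell by 1.20 ± 0.15; its near-identical relative PGAM4 was also called, at -0.93, and their signals cannot be told apart here. The zinc finger gene ZNF385B fell by 1.32 ± 0.15, HPS3, of lysosome-related organelles, by 1.22 ± 0.14, the DNA end-processing gene APTX by 1.15 ± 0.14 and the phosphatase gene CTDSP2 by 1.15 ± 0.12.

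Of 22 genes for androgen metabolizing enzymes 2 fell, AKR1C2 and AKR1C4, and 0 rose, against 0.890% and 0.872% of all genes. With the pairing 3 fell and 1 rose, against 3.14% and 2.57%. AKR1C2, which inactivates dihydrotestosterone, read 8.17 and 8.27 against 9.51 and 10.29. The scrambled repeats were further apart than the treated ones, and it fell by 1.68 ± 0.27. AKR1C4 read 7.08 and 7.02 against 8.08 and 8.66 and fell by 1.33 ± 0.20, and signal from relatives cannot be told apart here. The third relative measured, AKR1C3, read 5.55 and 5.78 against 5.43 and 6.44, with the groups overlapping, and was not called (-0.27 ± 0.46). Of 33 androgen-induced genes the retinal dehydrogenase gene ALDH1A3 rose by 0.89 ± 0.19 and the scaffold gene IQGAP2 by 0.61 ± 0.12, and 0 fell, with a median of -0.06. None of 13 androgen-repressed genes was called in the unpaired fit, while with the pairing BCHE at 0.81 and ACKR3 at 0.59 rose and UGT2B28 at -0.89, PEG3 at -0.62 and ST7 at -0.54 fell. Of 19 luminal genes 1 fell, the acid phosphatase gene ACP3, by 1.05 ± 0.21.

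ACTA2 stands in the actomyosin list and in the mesenchymal marker list. Of 32 actomyosin genes FHL2, a LIM domain cofactor, also rose, by 1.34 ± 0.13, with 1 scrambled array not detecting it and a second probe at 0.99, while PPP1R12B fell and the median was 0.11, and with the pairing 4 rose and 1 fell. Of 23 mesenchymal and fibroblast markers 6 were measured and ACTA2 was the 1 called. Their mean level, ACTA2 included, was 7.62 and 7.69 on the treated arrays and 7.23 and 7.24 on the controls. The median difference of the 6 was 0.29, or 0.14 on the authors' processed values, and 2 of them were below 0. VIM, COL1A1 and TAGLN were detected on all 4 arrays and CDH2, TWIST1, COL1A2, COL3A1 and DCN on none. All arrays are of LNCaP cultures, and the cause of the rise of ACTA2 was not tested.

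Of 44 measured hypoxia-induced genes 1 rose, CITED2, a transcriptional coregulator, by 0.64 ± 0.13, and 0 fell. CITED2 was not higher in miR-135b cells at 36 h (10.23 and 10.18) than at 12 h (10.39 and 10.51). Its controls went from 10.06 and 10.22 at 12 h to 9.54 and 9.59 at 36 h. The median was 0.06, and 26 members were above 0, or 59.1% against 51.9% of all genes. With the pairing IGFBP3 at 0.87 rose as well, and CA12 at -0.79, GBE1 at -0.66 and PGM1 at -0.63 fell. Other lists held few calls. LEF1, of WNT signalling, fell by 0.70 ± 0.12 (1 of 14), the interferon-induced gene OAS3 by 1.06 ± 0.21 (1 of 34) and the fatty acid elongase gene ELOVL6 by 0.56 ± 0.12 (1 of 19, limma adjusted p = 0.0494). Of 27 BCL2 family and caspase genes BCL2L12 fell by 1.04 ± 0.17 and CASP9 rose by 0.73 ± 0.15, although the other probe of CASP9 read 0.06. STMN1, counted with neuroendocrine markers but widely expressed in dividing cells, fell by 0.64 ± 0.13 with another probe at -0.23. Among 23 genes induced by NRF2, AKR1C2 was the 1 called. With the pairing 1 WNT target also rose and 2 interferon genes fell in all. None was called among 24 immediate early genes, 24 of BMP and TGF-beta signalling, 34 of the unfolded protein and ATF4 response, 19 of cholesterol synthesis, 21 of microRNA processing, 36 of lysosome and autophagy, 1 basal and 6 leukocyte markers. In these the paired fit called 3, 1, 1, 5, 1, 2, 0 and 1.

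The differences at 36 h were set beside those at the earlier times, each measured against its own controls. Of the 98 rises all had a positive value at 24 h and 88 at 12 h, where 51.3% and 48.3% of all genes did, and their median went from 0.26 to 0.71 and 0.93. Of the 100 falls 98 were negative at 24 h and 91 at 12 h, with medians of -0.44, -0.79 and -0.89. The value at 36 h was the largest of the 3 times for 85 rises and 74 falls. The genes were chosen for passing at 36 h, which by itself favours larger values at that time. These counts and medians therefore do not show that the effect grew. Of the 198 genes 32 rises and 46 falls were also called at 24 h, where 0.320% of all genes rose and 0.489% fell. At 12 h 1 rise and 3 falls were called, against 0.00890% and 0.0267%. All these calls use 1 spread per gene from the 12 arrays and so are not independent.

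By the test of the difference itself, the effect at 36 h was not shown to differ from that at 12 h or 24 h for any gene on the background-corrected values. Limma called 0 genes (0.00%) for 36 h minus 12 h (606 at an unadjusted p under 0.05, smallest adjusted p = 0.309) and 0 for 36 h minus 24 h (272), and 0 for each with the pairing (1556 and 887). On the authors' processed log2 values with the pairing, 112 genes (0.997%) passed for 36 h minus 12 h. The 10 called genes with the largest 36 h minus 12 h difference are therefore given as values. RSPH1 went from 0.14 at 12 h to 1.46 and 2.05, ACTA2 from 0.32 to 1.26 and 1.84, and RAB36 from 0.48 to 1.75 and 1.86. TTC29 began at 0.27, S1PR3 at -0.11, DYNLRB2 at -0.07 and AKR1C2 at -0.08, and reached 1.66, 1.58, 1.51 and -1.68. For AKR1C2 the controls moved more than the treated cells: the miR-135b arrays read 8.46 and 8.39 at 12 h and 8.17 and 8.27 at 36 h, and the scrambled arrays 8.34 and 8.66, then 9.51 and 10.29. AKR1C4 did likewise, at 7.15 and 7.15, then 7.08 and 7.02 in miR-135b cells and 7.13 and 7.45, then 8.08 and 8.66 in controls. FHL2, a rise at 36 h, stayed at 7.28 and 7.03, then 6.97 and 6.89 in miR-135b cells, while its controls read 6.93 and 6.93, then 5.56 and 5.64. For CFAP91 both groups moved, from 8.06 and 7.51 to 8.38 and 8.28 in miR-135b cells. Its controls went from 7.71 and 7.10 to 6.90 and 6.89. How many called genes moved mainly in the controls was not counted. RSPH1 moved in the treated cells, from 6.12 and 6.31 to 8.05 and 8.27 in miR-135b cells, with controls at 6.09 and 6.06, then 5.88 and 6.34. DRC3, DNAAF11 and DNAAF4 were at 0.38, 0.15 and -0.16 at 12 h, near background. Other genes already had large values at 12 h: C12orf76 stood at 1.04, against 1.54 at 36 h, SCML2 at -1.26, CPLX1 at -1.72 and ZNF385B at -1.09.

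**Figure D5:**
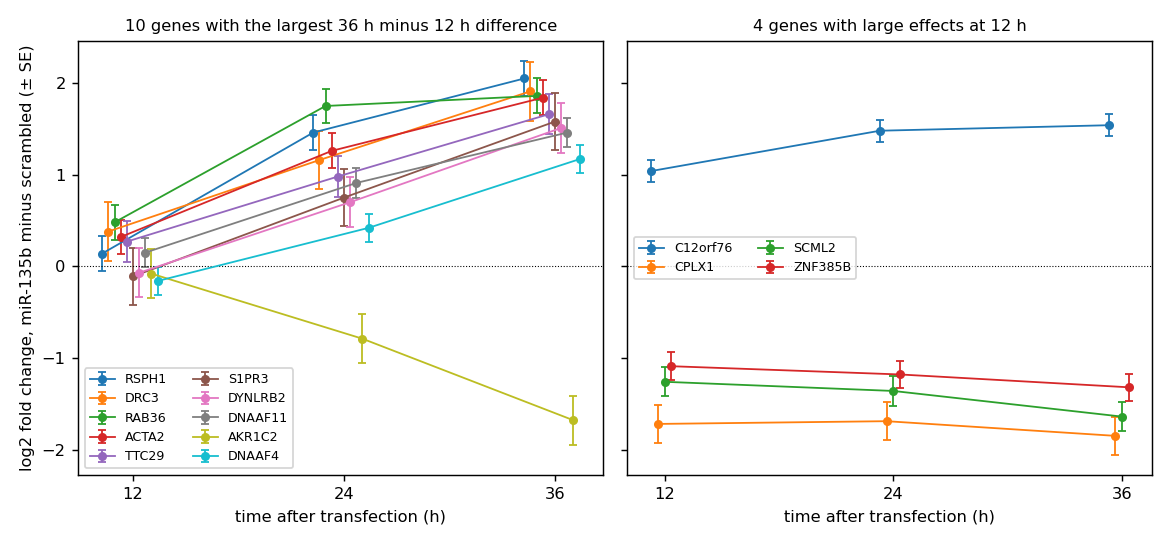
Log2 fold change of miR-135b against scrambled cells ± SE (vertical axis) at 12, 24 and 36 h (horizontal axis, points moved sideways to part them) for the 10 called genes with the largest 36 h minus 12 h difference (left) and for 4 genes with large values at 12 h (right), 2 arrays per group. RSPH1 goes from 0.14 to 1.46 and 2.05 and AKR1C2 from -0.08 to -1.68, while SCML2 goes from -1.26 to -1.64. On these background-corrected values no difference between times passed the limma test with adjustment over all genes. On the authors' processed values with the pairing, 112 genes passed for 36 h minus 12 h.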

How the data were processed

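RNA of LNCaP cells was measured on 12 Illumina arrays. Per the file headers, the deposited table of non-normalized values gives a signal intensity and a detection p-value for each of 47323 probes and each array. The other deposited table gives processed values of the authors on the log2 scale; its columns have 1 common median of 6.736 and followed log2 of their own array's signal with slopes of 0.962 to 1.03. The submitters' processing notes name GenomeStudio 2010.2 and lumi 1.8.3. Their roles, and whether the authors subtracted background, are not given in the sources used here.

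Intensities were background corrected with normexp (limma 3.58.1 in R 4.3.3, negative controls inferred from the detection p-values, offset 16), quantile normalized and set on the log2 scale. A probe was kept if 2 or more of the 12 arrays detected it at p under 0.01, which held for 19161. Of all probes 30113 had 1 gene name in the platform annotation used here, 8 several and 17202 none. Names were updated through a RefSeq table, and a gene was read from its probe of highest mean, which gave 11238 genes. A model of 6 group means was fitted to the 12 arrays (lmFit and eBayes, 6 residual degrees of freedom), with two-sided tests and Benjamini-Hochberg adjustment over all genes at 0.05. Where every array of 1 group missed a probe, the fold is a lower bound, taken from the brighter mean and, for each dim array, its weakest detected signal or the probe's signal if that was higher.

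Same-numbered arrays of 36 h deviated together from their group means (r = 0.58, and 0.47 and 0.46 at 12 and 24 h, against a limit of 0.1). The numbers, which the series' design text gives to biological repeats, were taken as pairs, and a fit with them as a block (3 residual degrees of freedom) is given beside the overall counts, the lists whose counts it moved most and the named genes whose call it changed. In data simulated for this comparison, the fit recovered 64.0% of genes changed by 1 log2 unit and 97.0% of those changed by 2, and 8.00% of 175 calls were false. With 2 arrays per group, their number limits the precision, and p-values measure the spread between these repeats.

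Named genes are the 15 largest rises and falls with groups apart, the 10 called genes with the largest 36 h minus 12 h difference, every called member of 37 gene lists and the reported targets. The comparison, the lists and the rule were chosen with earlier results of these data known, and list symbols were matched to current names after a first pass over the values. Alternatives were other scalings, offsets, filters and probe rules, the authors' processed values, the arrays of 36 h alone, and leaving out each array.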

Additional observations from a re-analysis of the deposited data

Results flagged for a closer look

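Probes with no gene name in the annotation used here were left out of the gene counts. Of 4256 such probes that passed the detection filter, 15 changed at 36 h when all kept probes were fitted together, 3 upward and 12 downward, which is 0.352% (limma, Benjamini-Hochberg adjusted p under 0.05). With the pairing 52 passed. A first fit of these probes on their own had called 0, with a smallest adjusted p of 0.0719 and 274 at an unadjusted p under 0.05, so the count depends on which probes share the adjustment and the prior spread. The joint fit was made after that result was seen.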

How the results depend on the processing

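No called gene among those named changed sign in any alternative run, while 7 reported targets that were not called (BTRC, JAK2, KLF4, LATS2, MTCH2, ROCK1 and ROCK2) crossed 0 when 1 array of 36 h was left out. For all, rising and falling genes (198, 98 and 100), the replicate block within each time gave 642, 289 and 353, median scaling 88, 46 and 42, and the 4 arrays of 36 h alone 0, 0 and 0, with or without the replicate block (1140 genes at an unadjusted p under 0.05 without it and 2226 with it). The authors' processed log2 values gave 299 in all and 168 falls, no background correction 165 falls and genes detected on all 12 arrays 158 falls. Leaving out 1 array gave 9 to 159 in all, 7 to 81 rises and 2 to 78 falls, and 0 to 0 genes for either difference between times. The replicate block on the authors' processed values, added after the data were seen, gave 1407, 670 and 737, and was the 1 setting to call a difference between 36 h and 12 h, for 112 genes (0.997%). Of these 74 were more positive and 38 more negative at 36 h, and 49 were called at 36 h, led by S1PR3 (1.50, adjusted p = 0.000217) and RSPH1 (1.24, 0.000325). The same block on the background-corrected values called 0, so a change of effect with time rests on that pair of choices. Of 93 named genes 75 were called, and all 75 lost their call on the 4 arrays of 36 h alone. Of the 75, 28 lost it with median scaling, 13 without the detection filter and 5 on the mean of a gene's probes (IFT43, ELOVL6, CASP9, SCML1 and STMN1). CASP9 was the 1 to lose it on the authors' values and without background correction. PHLPP2, RUNX2 and BMPR2 gained one with the replicate block, and PHLPP2 among genes detected on all 12 arrays (0.042). On the authors' values the block gave calls to these 3 and to NR3C2, PTK2, SMAD5 and SIAH1 (adjusted p = 0.0204, 0.0107, 0.00961 and 0.0133). The median of all genes was 0.01 with quantile normalization and 0.03 with median scaling. The slide as a block was not run, since the files name no slides.

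Signal near background limits the dimmest genes: 11 of the 198 calls rest on a probe detected on no array of 1 group, and fold changes are smaller on the authors' processed values, where the cilia genes had a median of 0.25 against 0.34. On those values 198 of the 198 genes kept their sign and 191 passed the threshold.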

Other observations

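Genes outside the lists that are known from cilia or basal bodies were also among the rises, named here after their values were seen. PIERCE1, a protein inside ciliary microtubule doublets, read 10.58 and 10.53 on the miR-135b arrays and 9.46 and 9.47 on the scrambled arrays, a rise of 1.09 ± 0.14 (limma adjusted p = 0.00775). CETN2, a centrin of centrioles, read 12.19 and 12.19 against 11.34 and 11.29 and rose by 0.87 ± 0.15, from -0.07 at 12 h and 0.40 at 24 h. The ciliary kinase genes CDK20 and MOK rose by 0.80 ± 0.14 and 1.05 ± 0.17, and the ciliary GTPase gene RABL2A by 0.80 ± 0.15. DPCD and SPA17 rose by 0.77 ± 0.12 and 0.79 ± 0.14. Since these were picked because they rose, their number says nothing about cilia genes as a class.

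Signalling and transcription genes outside the lists, also named after their values were seen, included STAT3, which read 10.41 and 10.81 against 9.51 and 9.58 and rose by 1.07 ± 0.17, and KLF9, a factor known for hormone response, which rose by 0.86 ± 0.13. EIF4EBP1, a brake on translation initiation, read 7.03 and 7.20 against 8.15 and 8.34 and fell by 1.14 ± 0.13. The forkhead gene FOXN3 read 8.96 and 8.99 against 10.05 and 10.09 and fell by 1.09 ± 0.12, with -1.04 already at 12 h. TCF19, a gene of proliferating cells, fell by 1.10 ± 0.21, and CENPQ of the centromere by 1.09 ± 0.21, at 0.01 at 12 h and -0.90 at 24 h.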
